A study of Mus musculus with 48 samples.

Results

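The cells described here were the 23 progenitors of the primitive endoderm (pPrE) among 48 single cells sequenced from the inner cell mass (ICM) of mouse blastocysts at embryonic day E3.75. They were divided into classes chosen by the read count of a single gene, Sox7: 13 pPrE cells had at least 1 Sox7 count and 10 had none. The other 25 cells, the epiblast progenitors (pEPI), serve only as a reference. The embryos were heterozygous for Pdgfra H2B-GFP, a knock-in that places a nuclear green fluorescent protein at the Pdgfra locus, so every cell should carry the reporter allele beside a wild-type allele. The genotype is taken from the study's methods, while the sample titles read WT. Reporter mice were crossed with F1 hybrids of C57BL/6J and CBA/J by natural mating, and 3 embryos were chosen for a salt-and-pepper pattern of GFP in the ICM. No culture or drug treatment preceded the removal of the trophectoderm by immunosurgery and the dissociation of each ICM. Messenger RNA of each cell was measured by Smart-seq2, which amplifies whole transcripts but marks neither the molecule nor the strand a read came from.

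The primitive endoderm is an epithelium that comes to lie between the epiblast and the blastocyst cavity and later gives rise to the visceral and parietal endoderm of the yolk sacs. Its progenitors arise mixed with those of the epiblast, under fibroblast growth factor (FGF) signalling through the ERK kinase, and they acquire transcription factors in a sequence that runs from Gata6 through Sox17 and Gata4 to Sox7. The young epithelium secretes laminins, type IV collagen and the heparan sulphate proteoglycan perlecan, the components of a basement membrane. The question was therefore whether pPrE cells with Sox7 RNA, a marker of the more advanced primitive endoderm, differed from pPrE cells without it in the rest of the transcriptome.

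No label says which of the 3 embryos a cell came from. The cells were treated as 1 sample, so no p-value or standard error was computed, and every SD is a spread between cells. Depth and related properties were compared before any gene, since Sox7 could be missed in a shallow library. Total counts per cell ranged from 1718970 to 5638680 with a median of 3966920 in the 13 Sox7-detected cells, and from 1940652 to 7342785 with a median of 4481526 in the 10 cells without Sox7. The cells without Sox7 were thus not the shallower class. The median number of detected genes was 10500 against 10128, and mitochondrial genes took a median of 7.42% against 6.96% of the counts. Cells with 100 or more counts over 4 Y-linked genes cannot share an embryo with cells that lack them, and made up 7 of the 13 Sox7-detected cells and 5 of the 10 others. The split by Sox7 therefore cut across this division, and values are given within each side of it. Each library was made from a cell placed singly in a well, and whether a well held more than 1 cell was not tested.

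A group of 3 cells stood apart from the other pPrE cells. A1, which had Sox7, and B3 and B8, which had none, were the only pPrE cells with more than 100 FPKM of Nanog, a transcription factor of the early epiblast. FPKM here is the fragment count per kilobase of exon, scaled to a common library size. In A1, Nanog reached 308 FPKM, Gata6 was at 2.80 FPKM and Gata4 at 17.4 FPKM, the lowest values of both factors among the Sox7-detected cells. Its total of 3390494 counts and its 9809 detected genes were below the medians of its class. Results that rest on these 3 cells are given without them as well.

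Sox7 itself (chromosome 14, 63943673 to 63950732, + strand of GRCm38), a SOX-family transcription factor of the endoderm, chose the classes, and its values are a description. It was counted in 56.5% of the pPrE cells (13 of 23, exact 95% binomial interval 34.5% to 76.8%) and in 20% of the pEPI cells (5 of 25, 6.83% to 40.7%), whose median depth was 3751329 counts. The bounds cover counting of cells only, not how embryos vary. Among the Sox7-detected pPrE cells, Sox7 ranged from 0.197 to 75.5 FPKM with a median of 7.65 FPKM. The detected class therefore spanned a wide range of Sox7 levels.

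The cell nearest to the boundary was C5, with 4 Sox7 counts, followed by E1 with 20. At the other end C6 held 1367 of the 2434 Sox7 counts of the pPrE cells, or 56.2%. The mean was 12.9 ± 19.8 FPKM (SD, n = 13) with C6 and 7.66 ± 6.41 FPKM (n = 12) without it. In the 10 cells without Sox7, a count of 0 allows up to 3 counts, which corresponds to between 0.125 FPKM in F7 and 0.443 FPKM in B3, for counting error only. When every cell was thinned to 1718970 counts, 12 of the 23 pPrE cells still had Sox7, and 12 had 10 or more counts in the full data. Thinning only removes counts, so it bears on detected cells near the boundary and not on the cells at 0. Whether a cell with a count of 0 held Sox7 RNA that was not captured was not tested. In 3 of the 5 pEPI cells with Sox7 the count was 10 or more, so detection was not restricted to the pPrE branch. The pEPI cell B1, with 238 counts, had more FPKM of Sox7 than every pPrE cell but C6 and D3. In B1, Gata4, Sox17, Foxq1 and Gata6 were at 0 FPKM, Pdgfra at 8.61 FPKM and Nanog at 365 FPKM. Sox7 was at 6.48 FPKM in A4 and 2.78 FPKM in C7, while A3 and C3 had 1 count each. A high Sox7 level thus also occurred in a cell without RNA of these 4 endoderm factors.

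The other factors that mark the primitive endoderm divided the pPrE cells far less sharply than Sox7. Gata4, which with Gata6 drives the endoderm programme, had a median of 61.7 FPKM (17.4 to 117) in Sox7-detected cells and 41.2 FPKM (9.60 to 95.5) in cells without Sox7. Sox17, another endoderm SOX factor, had medians of 61.5 FPKM (6.25 to 104) and 48.6 FPKM (0 to 106). The ranges of both genes overlapped almost completely. The log2 ratio of mean FPKM, Sox7-detected over not detected, was 0.49 for Gata4 and 0.23 for Sox17.

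Foxq1, a forkhead factor present in pPrE and nearly absent from pEPI cells, was at a median of 9.87 FPKM (0 to 26) with Sox7 and 2.88 FPKM (1.78 to 41.2) without, yet its means gave a log2 ratio of only 0.22 because D5, without Sox7, held the highest value. The earliest factor, Gata6, ran in the other direction, with a median of 16.7 FPKM (2.80 to 42.9) against 26.6 FPKM (13.1 to 48.6) and a log2 ratio of -0.40. Pdgfra, the receptor whose locus carries the reporter, had similar medians of 17.4 and 18.7 FPKM and a log2 ratio of -0.10. Sox17, Foxq1, Gata6 and Pdgfra each overlap an exon of another annotated gene, and without strand information reads over the shared part cannot be told apart. Whether such reads were left out of the counts or given to a gene is not stated in the methods. For Gata4 the log2 ratio was 1.04 among cells with Y-linked counts and 0.04 among cells without them, and for Foxq1 it was 1.16 and 0.02.

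**Figure D1:**
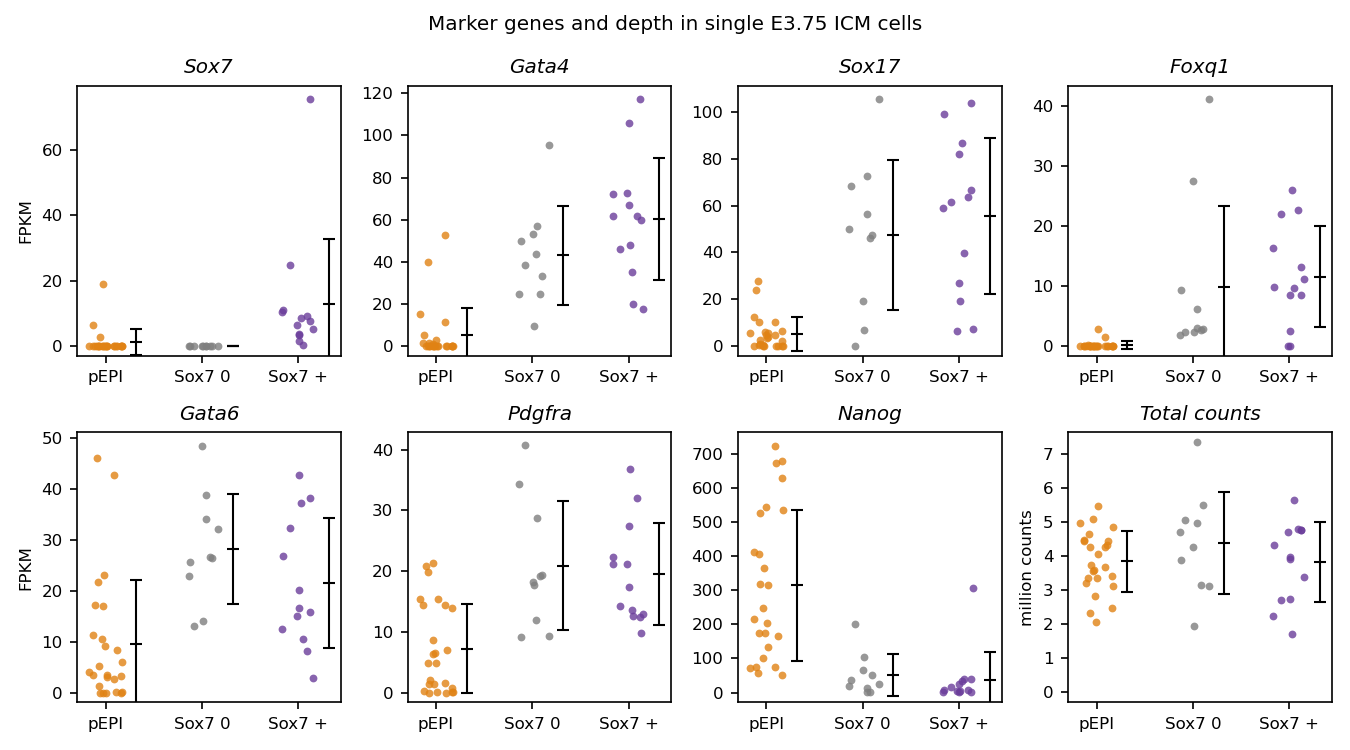
Levels of 7 marker genes (FPKM) and total counts in single cells, with pEPI cells in orange (n = 25), pPrE cells without Sox7 in grey (n = 10) and pPrE cells with Sox7 in purple (n = 13); the bars give the mean and SD between cells. The purple and grey points overlap for every gene but Sox7, which chose the classes, and the grey cells were sequenced no less deeply than the purple ones.

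The marker sets for each lineage showed what other RNA the classes held. Summed over 16 markers of the primitive endoderm other than Sox7, the Sox7-detected cells had 451 to 1094 FPKM (median 697), the cells without Sox7 260 to 627 FPKM (median 460) and the pEPI cells 61.8 to 299 FPKM. The 8 epiblast markers summed to 305 to 735 FPKM (median 471) with Sox7, to 228 to 1132 FPKM (median 695) without, and to 329 to 2532 FPKM in pEPI cells. In endoderm markers the Sox7-detected cells lay above all pEPI cells and the cells without Sox7 overlapped them slightly, whereas the epiblast sums of both classes overlapped the pEPI range. These sums weigh each gene by its FPKM, so they do not show a shift of every marker. Sparc alone had means of 304 FPKM with Sox7 and 176 FPKM without. Sparc, Lama1, Lamb1, Lamc1 and Col4a1 are part of the endoderm sum and also of the basement membrane list described below. The higher endoderm sum with Sox7 is therefore not separate from the shift of that list. Whether the endoderm sum differs without these genes was not tested. Most of the epiblast sum of both classes came from a single abundant marker, whose direction differed between cells with and without Y-linked counts. The 10 trophectoderm markers summed to 8.11 to 110 FPKM (median 36.8) against 3.13 to 65.8 FPKM (median 33.8), and none of the 34 markers in the 3 sets was at 0 in all 23 cells. The pPrE branch had itself been drawn from these libraries, so its distance from pEPI is not a finding. Since no marker but Sox7 separated the classes, they are named by Sox7, and an order in time was not shown by these values.

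Across the transcriptome, 10272 genes other than Sox7 had a mean of at least 1 FPKM and a count in at least 5 of the 23 cells. A gene was called higher when its mean FPKM was at least 2-fold higher in Sox7-detected cells and the Sox7-detected cell had the higher value in at least 75% of all pairs made of a cell from each class, with ties split evenly, and called lower by the mirror rule with at most 25% of pairs. By this rule 145 genes (1.41%) were higher and 103 (1.0%) lower, together 2.41% of the genes. These are shares past a rule of size, and how many genes another division of the same cells would bring past it was not tested. By fold alone 812 genes (7.9%) were higher and 580 (5.65%) lower, and no gene separated the 13 cells from the 10 without overlap. The median log2 ratio over all genes was 0.02, and 51.6% of the genes had a log2 ratio above 0.

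Of the called genes, 143 of the 145 higher and 99 of the 103 lower had the same direction among cells with and among cells without Y-linked counts, but only 79 and 53 were at least 2-fold apart in both. The pooled difference is made of these same cells, so shared direction is part of the rule and no separate support. In the class in which they were higher, the called genes had a median level of 7.62 FPKM for genes higher with Sox7 and 6.20 FPKM for genes lower with Sox7.

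**Figure D2:**
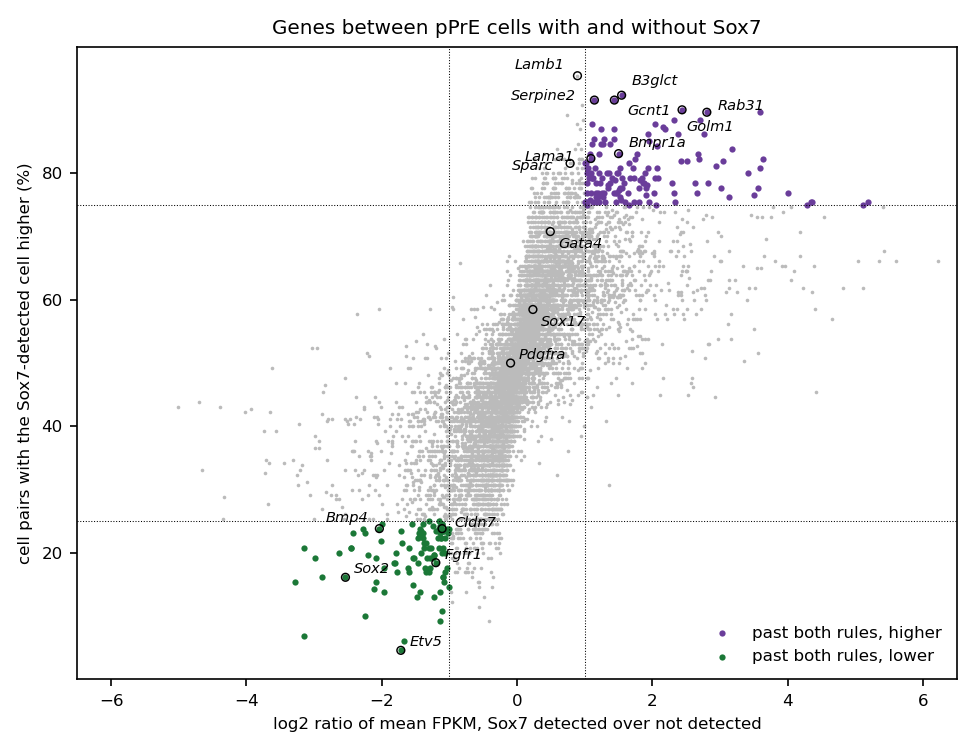
Each point is a gene of the 10272 tested that had counts in both classes, placed by its log2 ratio of mean FPKM (Sox7 detected over not detected) and by the percentage of cell pairs in which the Sox7-detected cell was higher; dotted lines mark the rule, and genes past it are purple (higher) or green (lower). Lamb1 at 95.4% and Etv5 at 4.62% of pairs lie at the upper and lower ends, while Gata4, Sox17 and Pdgfra lie among the uncalled genes.

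Components of the basement membrane made up the list with the widest shift towards the Sox7-detected cells relative to its spread. Of 12 listed genes 11 could be compared, 2 of these were higher, none was lower, and 9 had a log2 ratio above 0. Over all compared genes 1.41% were higher, 1.0% were lower and 51.6% had a log2 ratio above 0. Their median log2 ratio was 0.64, beside 0.02 for all genes. The list score, the mean log2(FPKM + 1) of its genes, was 4.07 ± 0.40 (SD, n = 13) with Sox7 and 3.67 ± 0.30 (n = 10) without. The highest score, 4.68 in D3, and the lowest, 3.07 in B3, lay in the Sox7-detected and the other class respectively, and the classes overlapped between 3.40 and 4.09. Within the cells with and without Y-linked counts the difference of the score was 0.30 and 0.54, and it was 0.34 without A1, B3 and B8.

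Lama1 (chromosome 17, 67697259 to 67822647, +), the alpha chain of laminin-111, was among the called genes. It ranged from 12.5 to 71.3 FPKM (median 35.1) in Sox7-detected cells and from 4.16 to 35.7 FPKM (median 16.7) in the others. Only B5 among the 13 cells fell below the median of the cells without Sox7. The log2 ratio was 1.09, with the Sox7-detected cell higher in 82.3% of pairs, 1.13 and 1.09 within the cells with and without Y-linked counts, and 0.93 without A1, B3 and B8. Without D3, its highest cell, it was 0.996, so that Lama1 fell short of the rule in both cases. Hspg2 (chromosome 4, 137468769 to 137570630, +), which encodes perlecan, was at a median of 4.58 FPKM (0.513 to 16.2) against 0.940 FPKM (0 to 6.11). Its log2 ratio was 1.57, but 0.65 among cells with Y-linked counts and 2.25 among cells without. Perlecan RNA was thus low in both classes, and the size of its difference was not the same in both groups of cells.

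Lamb1 (chromosome 12, 31265234 to 31329644, +), the beta chain that pairs with Lama1, had the highest share of cell pairs of all 10272 genes, 95.4%, although its log2 ratio of 0.89 kept it outside the rule. It ranged from 62.0 to 136 FPKM (median 86.8) with Sox7 and from 10.5 to 73.5 FPKM (median 47.8) without. Of the 10 cells without Sox7 only B8 and A8, at 73.5 and 62.5 FPKM, reached the range of the Sox7-detected cells. The log2 ratio was 0.55 and 1.35 within the cells with and without Y-linked counts. The promoter window of Lamb1 is shown because it lies at the upper end of the order by cell pairs. It runs from 250 bases before to 50 bases after the RefSeq start site, at chr12:31265043-31265342 of GRCm38.p6 on the + strand. Capitals mark a match to CCAAT, the core of the CCAAT box.
Lamb1: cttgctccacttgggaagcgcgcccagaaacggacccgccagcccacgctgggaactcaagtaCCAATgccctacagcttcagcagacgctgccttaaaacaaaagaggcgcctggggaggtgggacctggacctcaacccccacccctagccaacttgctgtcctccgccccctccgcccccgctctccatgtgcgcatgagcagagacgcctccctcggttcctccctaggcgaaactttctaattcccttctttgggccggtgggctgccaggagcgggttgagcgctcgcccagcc

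The third laminin-111 chain, Lamc1, had medians of 37 FPKM (24.5 to 60.7) and 23 FPKM (11.1 to 46), with a log2 ratio of 0.64 and 80% of pairs. Sparc, a collagen-binding matrix protein and the most abundant transcript of the list, stood at 233 FPKM (179 to 564) against 177 FPKM (108 to 252), with a log2 ratio of 0.78 and 81.5% of pairs. All 3 laminin-111 chains and Sparc thus leaned the same way without separating the classes. The collagen IV chains were less distinct, with log2 ratios of 0.50 for Col4a1 and 0.87 for Col4a2 and 65.4% and 70% of pairs. The listed genes did not move as a block. Nid1, which encodes the laminin-binding nidogen, was lower with Sox7, at a median of 11.6 FPKM (3.31 to 32) against 30.3 FPKM (10.8 to 73.8) and a log2 ratio of -0.96, just short of the rule. Fn1, encoding fibronectin, had a log2 ratio of -0.83 over all cells, which was carried by the cells without Y-linked counts, at -1.49.

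**Figure D3:**
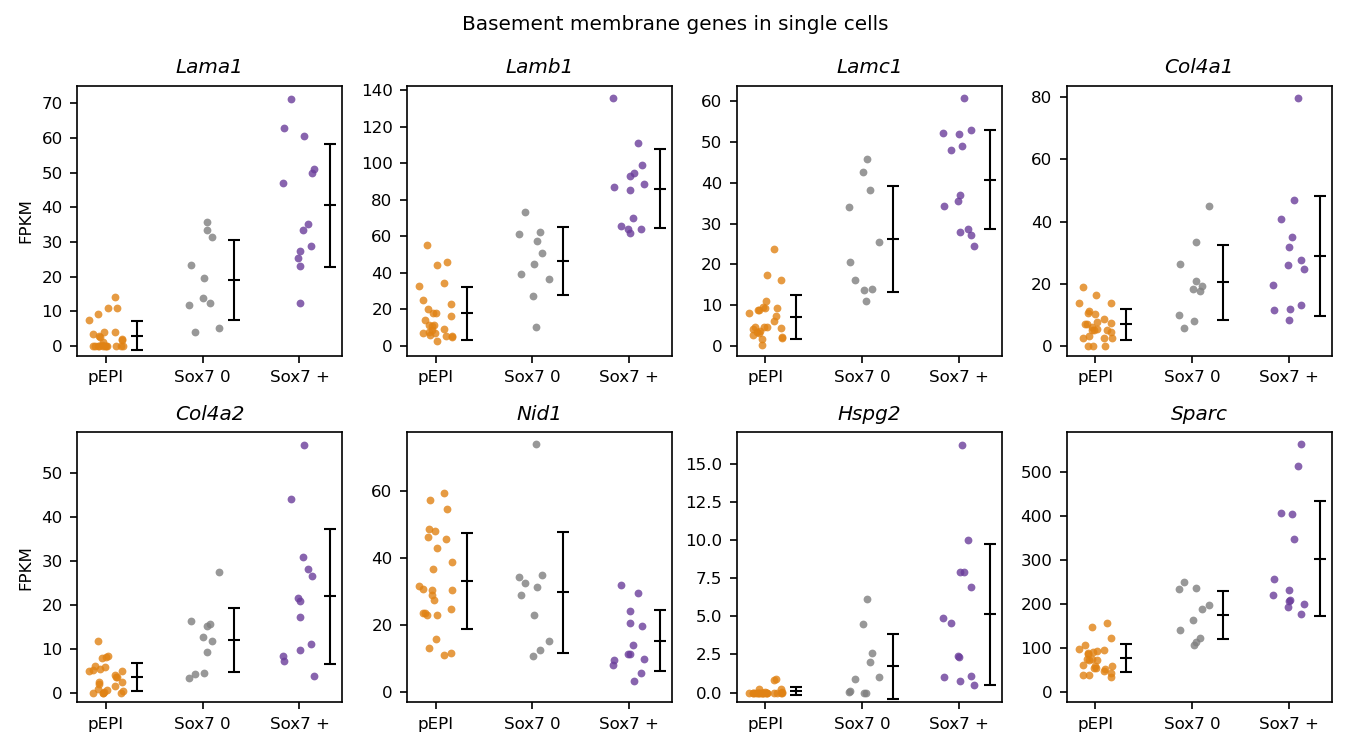
FPKM of 8 basement membrane genes in pEPI cells (orange, n = 25), pPrE cells without Sox7 (grey, n = 10) and pPrE cells with Sox7 (purple, n = 13), each point a cell, with the mean and SD. Lama1, Lamb1, Lamc1 and Sparc lie higher in purple than in grey with overlapping points, and Nid1 lies lower.

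Enzymes that modify and fold collagen in the endoplasmic reticulum leaned the same way with none past the rule. Of 12 listed genes 11 were compared, 9 had a log2 ratio above 0, beside 51.6% of all genes, and the median was 0.32. The prolyl hydroxylase subunit P4ha1 had a median of 112 FPKM (48 to 153) with Sox7 and 61.9 FPKM (11.3 to 111) without, for a log2 ratio of 0.69 and 82.3% of pairs. The lysyl hydroxylase Plod2 had a log2 ratio of 0.93 and 77.7% of pairs. Serpinh1, the collagen chaperone HSP47, and P4hb, protein disulphide isomerase, had log2 ratios of 0.26 and 0.40 with 60% and 60.8% of pairs. The list score differed by 0.32, with SDs of 0.37 and 0.54 between cells. Without A1, B3 and B8 the difference was 0.15.

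The receptors through which the primitive endoderm senses its surroundings included a called gene in each direction. All 10 listed genes were compared, and over all genes 2.41% were called in either direction. The median log2 ratio was 0.10, and 5 were above 0, near the share of 51.6% over all genes. Fgfr1 (chromosome 8, 25513654 to 25575718, +), the FGF receptor shared by both ICM lineages, ranged from 0 to 17.4 FPKM (median 3.68) in Sox7-detected cells and from 3.48 to 27.3 FPKM (median 10.1) in cells without Sox7. Only B6 of the Sox7-detected cells exceeded the median of the others. The log2 ratio was -1.20, with 18.5% of pairs, but -0.48 among cells with Y-linked counts, and -0.96 without F7, its highest cell. Fgfr2, the FGF receptor largely confined to the endoderm lineage, was at 10.8 FPKM (0.733 to 19) against 5.51 FPKM (1.18 to 20.6) with a log2 ratio of 0.38, or 1.17 among cells with Y-linked counts and -0.02 among cells without. Bmpr1a (chromosome 14, 34410734 to 34503341, -), a type I receptor for bone morphogenetic proteins, was higher, at a median of 4.35 FPKM (1.14 to 10.2) against 1.62 FPKM (0 to 3.56). Its log2 ratio was 1.5 with 83.1% of pairs, and 0.94 among cells without Y-linked counts. In pEPI cells the mean of Bmpr1a was 3.56 FPKM, beside 4.59 FPKM with Sox7 and 1.63 FPKM without. Fgfr1, Fgfr2 and Bmpr1a each share exon sequence with another annotated gene, so part of their reads may have been left out or may belong to it.

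Among the targets and feedback inhibitors of ERK signalling 1 gene of 12 compared, Etv5, passed the rule, beside 2.41% of all genes. Etv5 (chromosome 16, 22381309 to 22439719, -), an ETS transcription factor induced by FGF signalling and also abundant in the epiblast lineage, ranged from 1.34 to 18.8 FPKM (median 10.1) in Sox7-detected cells. In cells without Sox7 it ranged from 15 to 70.8 FPKM (median 27.1), and in pEPI cells its mean was 62.4 FPKM. Of the 10 cells without Sox7 only E6 and D7 lay within the range of the Sox7-detected cells. The log2 ratio was -1.72, and the Sox7-detected cell was higher in 4.62% of pairs, the lowest share of all 10272 genes. It was -1.90 and -1.56 within the cells with and without Y-linked counts, -1.74 without A1, B3 and B8, and between -1.96 and -1.39 over 16 settings of the processing. Within the Sox7-detected cells, in contrast, Etv5 did not follow the Sox7 level, with a Spearman rho of 0.15 over 13 cells.

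Apart from Dusp6, the rest of the ERK list did not share this pattern. Of 12 genes compared 7 had a log2 ratio above 0, near the share of 51.6% over all genes, with a median of 0.14. Spry2, a feedback inhibitor and the most abundant member, had medians of 233 FPKM (88.7 to 539) and 276 FPKM (151 to 495) with a log2 ratio of -0.15. Dusp6, the ERK phosphatase, leaned the same way as Etv5, with a log2 ratio of -1.28, but 31.9% of pairs kept it outside the rule. The log2 ratio of Dusp6 was -0.61 and -2.27 within the cells with and without Y-linked counts, and its mean in pEPI cells was 14.9 FPKM. Dusp4, another phosphatase, had a log2 ratio of -0.32 with 40% of pairs. The immediate early gene Fos was at 0.53 and Egr1 at 0.09, each with an overlap across nearly the whole range. The list score differed by -0.18, which is less than the SD between cells of 0.35 to 0.36.

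The promoter window of Etv5 is shown beside that of Lamb1 as the gene at the other end of the order by cell pairs. It lies at chr16:22439521-22439820 of GRCm38.p6 and is written 5′ to 3′ on the - strand, with matches to CCAAT in capitals.
Etv5: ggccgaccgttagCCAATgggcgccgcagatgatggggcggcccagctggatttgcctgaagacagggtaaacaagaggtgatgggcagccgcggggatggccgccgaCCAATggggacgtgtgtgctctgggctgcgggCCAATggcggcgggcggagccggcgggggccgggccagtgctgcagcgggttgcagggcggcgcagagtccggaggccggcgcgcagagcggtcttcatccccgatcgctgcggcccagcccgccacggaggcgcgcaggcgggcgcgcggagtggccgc
CCAAT, read on both strands, occurred in 1 place in the Lamb1 window and in 3 places in the Etv5 window, and was searched for after these sequences had been seen. It was present in 38% of 27025 RefSeq windows of the same length, in 40.8% of the 7093 that belong to compared genes, in 42.6% of the 115 for genes higher with Sox7 and in 44.3% of the 70 for genes lower with Sox7. GATAA, the core bound by GATA factors, occurred in 16.2% of the windows of compared genes, 16.5% of those of higher and 14.3% of those of lower genes. ACAAT, a core bound by SOX factors, occurred in 19.9%, 13.9% and 20% of the same windows. Neither GATAA nor ACAAT was in the windows of Lamb1 and Etv5, and these letters alone do not mark binding sites.

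Genes of naive pluripotency, which pPrE cells share in part with the epiblast lineage at this stage, leaned towards the cells without Sox7. All 20 listed genes were compared. Of these 1 was lower, beside 1.0% of all genes, and none was higher. A log2 ratio above 0 was found for 4, beside 51.6% of all genes, and the median was -0.32. Sox2 (chromosome 3, 34650405 to 34652461, +), an epiblast SOX factor, was counted in 5 of 13 Sox7-detected cells and in 8 of 10 cells without Sox7. It ranged from 0 to 4.77 FPKM (median 0) with Sox7 and from 0 to 13.1 FPKM (median 6.55) without, beside a mean of 12.4 FPKM in pEPI cells. Its log2 ratio was -2.54 with 16.2% of pairs, -1.74 and -3.98 within the cells with and without Y-linked counts, and -2.12 without A1, B3 and B8. Of the cells without Sox7 only A8 and F2 lacked Sox2 counts.

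Nanog was not past the rule. It ranged from 0.174 to 308 FPKM (median 8) with Sox7 and from 0.342 to 202 FPKM (median 30.2) without, with a log2 ratio of -0.47 that became -0.84 without A1, B3 and B8, -1.81 without A1 alone and 0.82 without the wells of letter B, which include B3 and B8. Its direction therefore rested on a few cells. Dppa4, a chromatin-associated pluripotency gene, differed little in size but in most cells, at 154 FPKM (69.9 to 208) against 221 FPKM (160 to 280), with a log2 ratio of -0.56 and 11.5% of pairs. Its mean in pEPI cells was 150 FPKM, near the 147 FPKM of the Sox7-detected cells and below the 216 FPKM of the others. Esrrb had a log2 ratio of -0.90 with 26.9% of pairs, while Pou5f1, Klf5 and Dppa5a, all abundant in both classes, were at -0.16, 0.01 and 0.16. The list score was 4.74 ± 0.31 (SD, n = 13) with Sox7 and 5.14 ± 0.44 (n = 10) without, and the difference was -0.15 among cells with Y-linked counts and -0.65 among cells without.

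**Figure D4:**
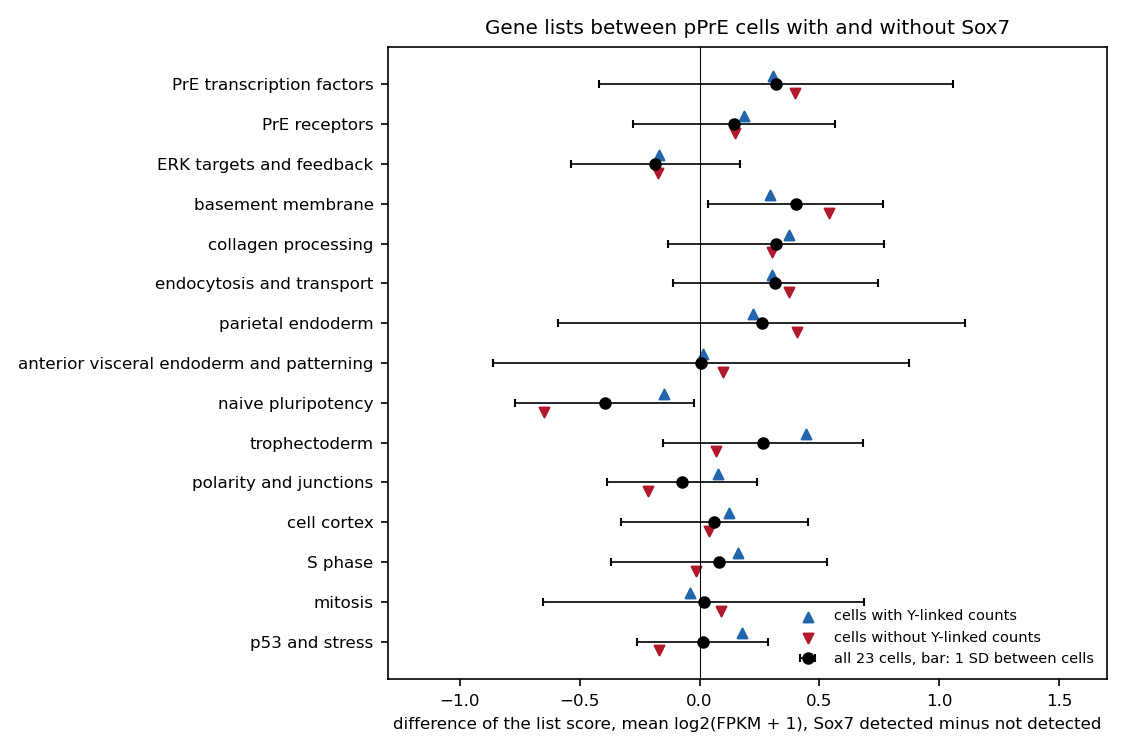
Difference of the list score, the mean log2(FPKM + 1) over the list, between pPrE cells with and without Sox7 for 15 gene lists; black points give all 23 cells with a bar of 1 pooled SD between cells, blue and red triangles the cells with and without Y-linked counts. Basement membrane at 0.40 and naive pluripotency at -0.40 are the lists whose bars do not reach 0.

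Genes for endocytosis and lipid transport, functions of the later visceral endoderm, ranged from abundant in every cell to uncounted. Of 15 listed genes 8 were compared, all 8 had a log2 ratio above 0, beside 51.6% of all genes, and none passed the rule, with a median of 0.36. Amn, the amnionless subunit of the cubilin receptor, illustrates the spread, with counts in 7 of 13 and 4 of 10 cells and medians of 3.94 FPKM (0 to 113) and 0 FPKM (0 to 14.5). Lrpap1, the chaperone of LDL-receptor family members, was at 229 FPKM (115 to 406) against 173 FPKM (114 to 274), with 80% of pairs. Ttr, Afp and Rbp4, which mark differentiated visceral endoderm, had no count in any pPrE cell. The lysosomal protease Ctsl and the apolipoprotein Apoe, the most abundant of the list, had log2 ratios of 0.21 and 0.12, and Ctsl was at -0.33 among cells with Y-linked counts and 0.61 among cells without. The list score differed by 0.32 with SDs of 0.47 and 0.36.

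Of the 5 parietal endoderm genes compared none passed the rule, and Snai1 and Srgn, the most abundant, had log2 ratios of -0.31 and 1.46. For Snai1 it was 0.37 among cells with Y-linked counts, -0.75 among cells without, and 0.06 without F7. Foxa2, a forkhead factor of the endoderm, was counted in 4 of 13 cells with Sox7 and in 1 of 10 without, and Gata5 in none. Hnf4a of the same list went the other way, with counts in 2 of 13 and 3 of 10 cells. Its means were 0.253 and 3.88 FPKM, a log2 ratio of -3.94, and its highest cell without Sox7 held 36.9 FPKM. For the 8 endoderm transcription factors compared, the median log2 ratio was 0.36 with none past the rule. The score of these factors differed by 0.32 with SDs of 0.74 in both classes, and by 0.17 without A1, B3 and B8.

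Among secreted patterning factors, Bmp4 (chromosome 14, 46383520 to 46390669, -), a ligand of the BMP receptors, was lower with Sox7. It ranged from 0 to 103 FPKM (median 11.5) against 0 to 257 FPKM (median 41.7), with a log2 ratio of -2.04, 23.8% of pairs, and -1.80 and -1.97 within the cells with and without Y-linked counts. D8 and D3 exceeded the median of the cells without Sox7, and E6 without Sox7 had no count. Bmp4 overlaps an exon of another annotated gene. Dkk1, a secreted inhibitor of WNT signalling nearly absent from pEPI cells, was at 44.3 FPKM (0 to 136) against 18.2 FPKM (0 to 92.9), a log2 ratio of 0.75. Lefty1 reached 261 FPKM in a single Sox7-detected cell and had a median of 0 FPKM there. Of the 10 listed genes 5 were compared, and only Bmp4 passed the rule, beside 2.41% of all genes.

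Genes of polarity and junctions and trophectoderm genes were each represented by 1 called gene, of 12 and 6 compared, with median log2 ratios of -0.07 and 1.23. Over all compared genes 2.41% were called in either direction. The trophectoderm score differed by only 0.26, with SDs of 0.41 and 0.42 between cells. This difference was 0.45 among cells with Y-linked counts and 0.07 among cells without. Tspan8 of this list had a log2 ratio of 0.96, but -0.94 among cells without Y-linked counts. Cldn7, a tight junction claudin more abundant in pEPI cells, was at 10.3 FPKM (0.0836 to 28.6) with Sox7 and 24.6 FPKM (0 to 55.9) without, with a log2 ratio of -1.11 and 23.8% of pairs. It was -0.21 among cells with Y-linked counts, -2.10 among cells without, and -0.93 without F7. Cdh1 and Epcam, the abundant adhesion genes of the list, had log2 ratios of 0.31 and -0.19. Gata3, a trophectoderm transcription factor, had counts in 7 of 13 Sox7-detected cells, up to 9.91 FPKM in A1, and in none of the 10 others. Its median in the Sox7-detected cells was 0.148 FPKM, and A1 held 42.2% of its summed FPKM. The mean of 1.80 FPKM was at least 110-fold higher than the level of 3 counts over the class at 0, for counting error in that class alone. With no count in that class, Gata3 passed the filter on low values only through the Sox7-detected class. Cdx2, the defining trophectoderm factor, was counted in 1 pPrE cell, Krt18 in 4 of 13 and 0 of 10, and Krt8 had a log2 ratio of 0.08. Gata3 overlaps other annotated exons, and the part of trophectoderm RNA in these counts was not tested.

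Genes of the cell cortex, of S phase, of mitosis and of the p53 and stress response showed median log2 ratios of 0.01, 0.05, -0.07 and 0.03 with none past the rule. Pfn1, an actin-binding profilin, was the most abundant cortical gene and had a log2 ratio of 0.25 with 76.9% of pairs, while Ezr, the membrane-cortex linker ezrin, was at -0.24 with 43.8% of pairs. Pcna and Rrm2, both used in DNA replication, were at 0.04 and 0.09. The mitotic activator Cdc20 ranged from 8.80 to 456 FPKM with Sox7 and from 18.7 to 264 FPKM without, so its log2 ratio of 0.99 lay within a wide spread. The scores of these 4 lists differed by 0.01 to 0.08, against SDs between cells of 0.27 to 0.68.

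Outside the lists, the genes that ordered the cells best towards Sox7 included enzymes that build glycans. B3glct, which adds glucose to O-linked fucose on secreted proteins, ranged from 4.35 to 16.7 FPKM (median 8.58) with Sox7 and from 0 to 8.47 FPKM (median 2.79) without, with a log2 ratio of 1.54 and 92.3% of pairs. Gcnt1, a branching enzyme of O-glycans, ranged from 13.5 to 57.0 FPKM (median 21.5) against 2.87 to 21.8 FPKM (median 8.53), with a log2 ratio of 1.44 and 91.5% of pairs. For both genes the values within the cells with and without Y-linked counts were close to the pooled ones, 1.62 and 1.47 for B3glct and 1.51 and 1.39 for Gcnt1. Fut8, the core fucosyltransferase, was at 5.09 FPKM (0.0994 to 18.2) against 0 FPKM (0 to 5.59), a log2 ratio of 2.31. These 3 genes were gathered after their values had been seen, and glycan enzymes as a group were not counted.

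Serpine2, a secreted inhibitor of serine proteases, ranged from 7.81 to 25.4 FPKM (median 14.4) with Sox7 and from 2.85 to 12.9 FPKM (median 6.98) without. Its log2 ratio was 1.14 with 91.5% of pairs, and 1.24 and 1.01 within the cells with and without Y-linked counts. Golm1, a Golgi membrane protein, and Rab31, a small GTPase of vesicle transport, had log2 ratios of 2.44 and 2.80 with 90% and 89.6% of pairs. Rab31 reached 73.1 FPKM in F6, and without that cell its ratio was 2.38. Mtbp, Shtn1 and Mospd1, the last on the X chromosome, had log2 ratios of 3.59, 2.71 and 2.04. For Mtbp it was 2.11 among cells with Y-linked counts and 6.87 among cells without, and Shtn1 had no count in 7 of the 10 cells without Sox7. Pfkl, the liver-type phosphofructokinase of glycolysis, was the most abundant of the 10 leading genes, at 37.4 FPKM (16.9 to 68.7) against 20.5 FPKM (8.17 to 29.3), a log2 ratio of 1.1 that was 0.91 among cells with Y-linked counts and 0.99 without A1, B3 and B8. Golm1, Mtbp and Fut8 overlap exons of neighbouring genes on the opposite strand.

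Besides Gata3, 4 of the called genes without any count in the 10 cells lacking Sox7 were named under the rule for the largest ratio. Genes at 0 in a class tie under this rule and were taken in order of symbol, not of size. Krt13, a keratin, was counted in 7 of the 13 Sox7-detected cells and reached 54.2 FPKM in D8, a mean at least 227-fold higher than the level of 3 counts over the class. These bounds allow for counting error in the class at 0 alone, and these genes passed the filter on low values only through the Sox7-detected class. 1110032A03Rik, Nt5dc2 and Zfp747 were counted in 8, 7 and 7 of the 13 cells, with means of 1.85, 2.46 and 2.59 FPKM that were at least 151-fold, 89.8-fold and 113-fold higher. Each was thus absent from 5 or 6 of the Sox7-detected cells as well. Of the 25 pEPI cells, 15 had counts of 1110032A03Rik, 5 of Nt5dc2, 6 of Zfp747 and 2 of Krt13. 1110032A03Rik and Nt5dc2 overlap exons of genes on the other strand.

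Towards the cells without Sox7, Etv5 was followed by Mindy1, a deubiquitinase, at a median of 2.46 FPKM (0 to 9.45) with Sox7 against 10.6 FPKM (6.36 to 22.2), with a log2 ratio of -1.67 and 6.15% of pairs. Fbxo11, the substrate receptor of a ubiquitin ligase, was at 1.66 FPKM (0 to 5.47) against 8.84 FPKM (1.98 to 21.6), with a log2 ratio of -2.25 and 10% of pairs. Rnf41, another ubiquitin ligase, and Med16, a subunit of the Mediator complex, had log2 ratios of -1.43 and -1.23. Every Sox7-detected cell lay below the median of the other class for Mindy1 and Fbxo11, while Med16 reached 8.05 FPKM in A1, near its highest value. For Fbxo11 the log2 ratio was -1.36 among cells with Y-linked counts and -3.26 among cells without, and for Med16 it was -0.96 and -1.52. Ctdsp2, a small phosphatase, had a log2 ratio of -1.48 (-0.82 and -2.55 within the same cells), and Slc24a5, a potassium-dependent exchanger, of -1.97. The noncoding RNA Gm45184 was at -3.15 with 6.92% of pairs, and the processed pseudogene Gm6054 at -1.15 with 9.23% (-0.99 without B3), though reads of a pseudogene may derive from its parent gene. Ube2q1, a ubiquitin-conjugating enzyme, had a log2 ratio of -1.10 over all cells but 0.36 among cells with Y-linked counts, where E8 with Sox7 held its highest value, 12.4 FPKM. Mindy1, Fbxo11, Ctdsp2 and Slc24a5 overlap exons of other genes, so part of their reads may have been left out or may belong to those.

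Under the same rule, 5 called genes without a count in any Sox7-detected cell were named in order of symbol. They were the pseudogenes Fthl17-ps1 (X chromosome), Gm13193 and Gm28114, the noncoding RNA Gm17745 and the microRNA precursor Mir1931. Fthl17-ps1 was counted in 7 of the 10 cells without Sox7 and each of the others in 5. Their means of 2.72 to 7.96 FPKM were at least 12.7-fold to 80.6-fold higher than the level of 3 counts over the 13 cells, a bound that allows for counting error in the class at 0 alone. They rested on 26 reads for Mir1931 and on up to 191 for Gm17745. With no count in the other class, they passed the filter on low values only through the class in which they were high, and the 4 genes counted in 5 cells lay at 25% of pairs, the edge of the rule.

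**Figure D5:**
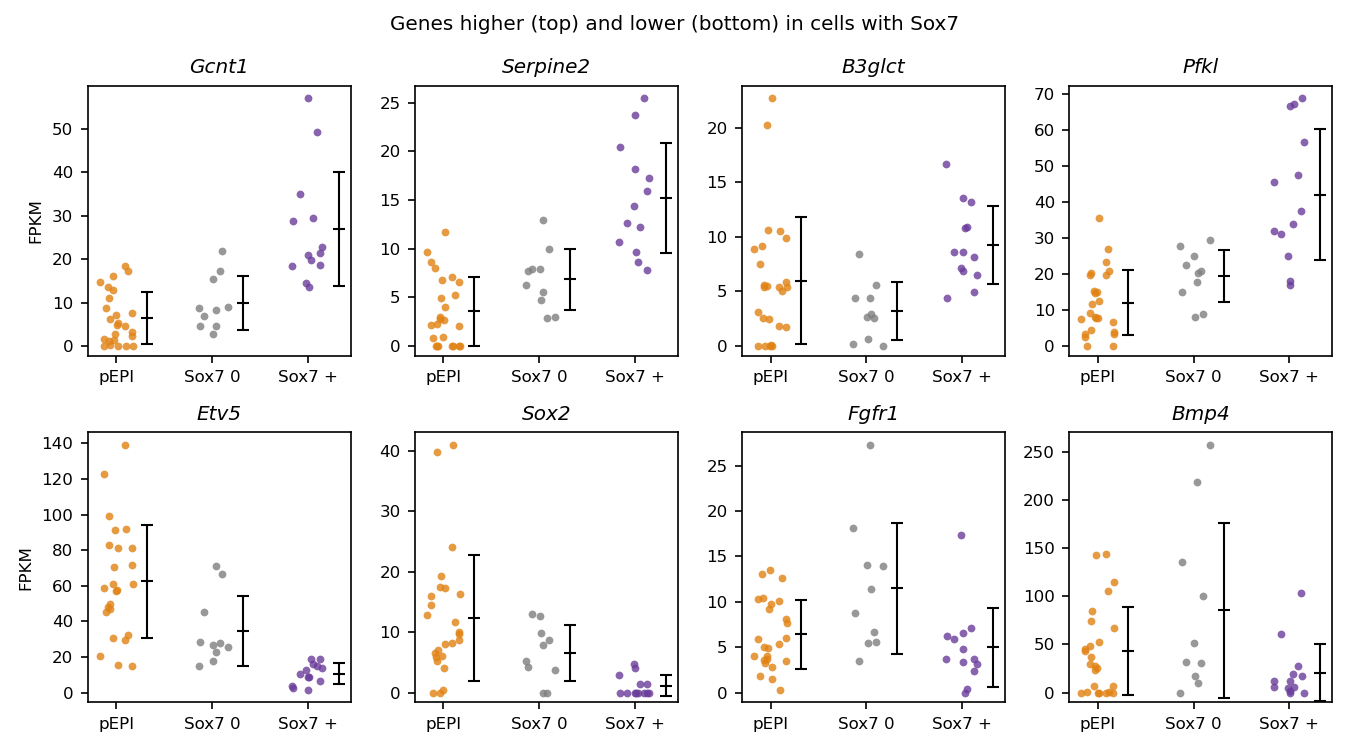
FPKM of 4 genes higher (top row) and 4 genes lower (bottom row) in pPrE cells with Sox7, with pEPI cells in orange (n = 25), pPrE cells without Sox7 in grey (n = 10) and with Sox7 in purple (n = 13), each point a cell, with the mean and SD. Etv5 stays at or below 18.8 FPKM in purple and at or above 15 FPKM in grey, whereas Bmp4 overlaps widely.

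The level of Sox7, rather than its detection, was followed by rank over the 23 pPrE cells, of which 10 share the value 0. These correlations are descriptions over cells of unknown embryos that differ in depth. The highest Spearman rho were 0.74 for Esd, a serine hydrolase, 0.74 for Lamb1, 0.71 for Aldh6a1, a mitochondrial dehydrogenase, and 0.68 for Cnnm4, a magnesium transporter, and for the pseudogene Gm12543, beside a median of 0.02 over all genes. The lowest were -0.74 for Psmd7, a proteasome subunit, -0.72 for Gm26620, -0.68 for Atg13, an autophagy factor, -0.68 for Ube2q1 and -0.66 for Fthl17-ps1. The split at 0 is part of each of these values. Aldh6a1, Cnnm4, Gm12543 and Gm26620 overlap exons of other genes.

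Within the 13 Sox7-detected cells, rho was 0.38 for Esd, 0.19 for Lamb1 and -0.47 for Psmd7, and it was 0.74 for Gm12543 and -0.88 for Gm26620. Psmd7 was nonetheless abundant and lower in most cells with Sox7, at 151 FPKM (129 to 240) against 203 FPKM (158 to 259), a log2 ratio of -0.41 with 9.23% of pairs. Among the list scores, rho within the 13 cells was 0.63 for the endoderm transcription factors, 0.68 for collagen processing and 0.40 for the basement membrane, 0.59 for mitosis and -0.65 for S phase, but the number of detected genes had a rho of 0.69 with Sox7 in the same cells. Whether the number of detected genes accounts for these values was not tested.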

How the data were processed

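Single-cell libraries were made by Smart-seq2 from 48 ICM cells. According to the methods and the submitters' processing notes, the authors aligned reads to mm10 with STAR, counted them on Ensembl 87 genes with HTSeq, and required at least 500000 mapped reads for a library to be kept. The deposited values are raw counts of 49671 genes, without normalization. The pPrE branch was read by eye from the study's dendrogram. FPKM was computed here with size factors (each cell's median ratio to the geometric mean over 48 cells) and with exon lengths in GENCODE M21, since Ensembl 87 was not used here; 85 genes without a length held 0.0146% of the counts.

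Cells of 3 unlabelled embryos are 1 sample, so no test was made. Genes needed a mean of 1 FPKM and counts in 5 of the 23 cells, and calls followed the fold and cell-pair rule of the report. Log2 scores used a pseudocount of 1. Ranges after a median are the lowest and highest cell. The cells, the 15 lists (187 genes), the rules and the naming of genes were chosen with earlier results of these data known. Named were the markers, in each direction the 10 called genes with the most extreme share of pairs and the 5 with the largest ratio, called members and the 2 most abundant members of each list, and the 5 genes at each end of the correlation with Sox7. Genes at 0 in a class tied at the largest ratio and were taken in order of symbol. Other genes of the lists were named after their values were seen. The values of 1 list member are not reported here. Shares have exact Clopper-Pearson intervals, and a count of 0 was given a floor of 3 counts, for counting error only, since amplified reads do not each stand for a molecule. Promoter windows came from RefSeq on GRCm38.p6; 115 of 145 higher and 70 of 103 lower genes had a complete window. No doublet caller was run on these 48 wells. In total 26 alternative settings were run, covering library size, thinning, the Sox7 minimum, subsets of cells, filters, thresholds and scale. The steps were tested on simulated counts. The tools were pandas 2.3.3 and numpy 2.4.6 under Python 3.11.15, with scipy 1.17.1 for intervals and matplotlib 3.10.9 for plots.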

Additional observations from a re-analysis of the deposited data

Results flagged for a closer look

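Of 89 values examined over the 10 cells without Sox7, 14 had a cell farther from the others than Dixon's 95% critical value of 0.466 for 10 values. Chance flags about 1 in 20 such groups only where values are normally distributed. Several of these genes were at 0 FPKM in many of the 10 cells, so the number expected by chance is not known. In F7, the deepest of the pPrE cells, Snai1 stood at 226 FPKM, Aldh6a1 at 8.86 FPKM and Gm26620 at 29 FPKM. In D5, Ube2q1 stood at 9.63 FPKM, Gm17745 at 12.2 FPKM and Mir1931 at 32.8 FPKM. In D2, Slc24a5 stood at 115 FPKM and Cdc20 at 264 FPKM, and in E6, Fut8 stood at 5.59 FPKM and Gm13193 at 38.3 FPKM. Nanog stood at 202 FPKM in B8, Mtbp at 1.60 FPKM in B3 and Shtn1 at 8.51 FPKM in F2. Esd was low in A8, at 0.0887 FPKM, where the next cell had 11.7 FPKM. The 13 Sox7-detected cells are too many for this comparison and were not examined.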

How the results depend on the processing

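The counts of 145 genes higher in Sox7-detected pPrE cells and 103 genes lower in Sox7-detected pPrE cells depended on the cells and thresholds used. They were 458 and 249 among the 12 cells with Y-linked counts and 550 and 584 among the 11 cells without. They were 275 and 218 without the wells of letter B, 297 and 178 without letter D, and 229 and 195 without the 3 cells above 100 FPKM of Nanog, a setting chosen after seeing the data. There were 241 higher genes without letter F and 164 lower genes without letter E. They were 73 and 41 at a mean of at least 5 FPKM, 61 and 51 at 80% and 20% of pairs, 812 and 580 without the rule on pairs, and 229 and 181 at a 1.5-fold difference. With Sox7 at 1 FPKM or more, 127 and 70 genes were called, of which 77 and 44 were among the main calls. Of 66 named genes with a ratio, 18 changed sign in at least 1 setting; 17 of these were not called, and the called gene was Ube2q1, at 0.36 among cells with Y-linked counts. Nanog turned to 0.82 without letter B, Snai1 to 0.37, Ctsl to -0.33 and Hspa5 to -0.33 among cells with Y-linked counts, and Tspan8 to -0.94 among cells without. The share of pPrE cells with Sox7 stayed between 52.2% and 63.2% when 1 choice was changed, and was 45.5% (5 of 11) in cells without Y-linked counts at 10 or more counts, and no list difference moved by more than the SD between cells. For the 10 named genes at 0 in a class no ratio was formed. No paired analysis was possible because the cells carry no replicate numbers and their embryos are not given. The cause of these changes was not tested, and the settings also differed in the number of cells and genes they left. The number of pPrE cells, 23, without embryo labels limits every value.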
